A study of Homo sapiens with 6 samples.

Results

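The genes described here are 10 ligands through which a tumour cell is read by natural killer (NK) cells, T cells and macrophages: MICA, MICB, ULBP2, ULBP3, PVR, NECTIN2, CD274, CD276, CD47 and LGALS9. They were taken as a named list, whatever their values, and 9 of the 10 have a listed transcript among the 12010 genes that could be named. LGALS9, the gene of galectin-9, was not analysed here. The samples were 6 RNA sequencing libraries of 92.1, an established human line derived from a uveal melanoma, grown in 1640 medium with 10% FBS. The 3 control libraries came from cells given the solvent DMSO, and the 3 treated libraries from cells given 0.1 µM LBH589 (panobinostat, a small-molecule inhibitor of histone deacetylases), all for 24 h. The labels name no separate cultures, so a p-value speaks only of the spread among these 6 libraries, and part of that spread may be technical. A single line was used, it was sequenced as bulk RNA, and the labels name no immune cells.

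NK cells weigh activating against inhibitory signals from the cells they touch. MICA, MICB and the ULBP proteins are stress-induced relatives of MHC class I that engage the activating receptor NKG2D, and PVR (CD155) and NECTIN2 (CD112) are adhesion molecules that engage the activating receptor DNAM-1 and the inhibitory receptor TIGIT. CD274 (PD-L1) and CD276 (B7-H3) belong to the B7 family that restrains T cells, and CD47 is the signal that keeps macrophages from engulfing a cell by binding SIRPα. Ligands can also be cut from the surface by proteases, so RNA is only one step toward what an immune cell sees.

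The promoter windows of the 4 NKG2D ligands are shown first, because all 4 were higher in LBH589. The direction of ULBP3 was fixed by how transcripts were listed, as given below. RefSeq gives GRCh38.p14 windows from 250 bases before to 10 bases after the annotated start, at chr6:31403345-31403604 for MICA, chr6:31497895-31498154 for MICB and chr6:149941764-149942023 for ULBP2, all on the plus strand, and at chr6:150069112-150069371 on the minus strand for ULBP3. Capitals mark matches to 4 motifs searched on both strands: the GC box (GGGCGG or CCGCCC), the CCAAT box (CCAAT or ATTGG), an inverted pair of heat shock half-sites (GAANNTTC) and the AP-1 motif (TGANTCA).
MICA: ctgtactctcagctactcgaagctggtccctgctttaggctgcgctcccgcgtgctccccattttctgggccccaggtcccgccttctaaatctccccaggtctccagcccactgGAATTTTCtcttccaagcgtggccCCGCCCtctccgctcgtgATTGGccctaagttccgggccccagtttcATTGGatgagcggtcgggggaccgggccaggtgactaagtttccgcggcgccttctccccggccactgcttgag
MICB: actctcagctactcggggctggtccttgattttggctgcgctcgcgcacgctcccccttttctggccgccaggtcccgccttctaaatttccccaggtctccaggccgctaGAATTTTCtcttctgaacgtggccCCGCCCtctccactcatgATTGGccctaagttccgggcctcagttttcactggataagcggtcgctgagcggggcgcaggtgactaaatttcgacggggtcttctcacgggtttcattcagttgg
ULBP2: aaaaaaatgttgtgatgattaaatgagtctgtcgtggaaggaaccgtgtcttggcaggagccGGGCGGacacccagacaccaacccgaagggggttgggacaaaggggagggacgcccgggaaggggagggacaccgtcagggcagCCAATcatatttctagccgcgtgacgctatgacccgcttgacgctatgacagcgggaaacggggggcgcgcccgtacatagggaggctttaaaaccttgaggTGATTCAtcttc
ULBP3: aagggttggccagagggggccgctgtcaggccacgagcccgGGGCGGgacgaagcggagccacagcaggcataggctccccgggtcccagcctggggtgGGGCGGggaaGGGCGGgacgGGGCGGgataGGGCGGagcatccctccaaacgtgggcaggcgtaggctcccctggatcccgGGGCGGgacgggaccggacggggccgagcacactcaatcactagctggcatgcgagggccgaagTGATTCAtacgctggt
The MICA and MICB windows were identical at 83.6% of 256 aligned bases, while ULBP2 and ULBP3 shared 63.8% of 229. The heat shock pair was found in MICA and MICB and in no other of the 11 windows of the ligand genes, where CD276 has 2 and each other gene 1, and it occurs in 5.93% of 35116 RefSeq windows of this length. It ends 128 bases before the start in MICA and 132 in MICB. The AP-1 motif was found in ULBP2 and ULBP3 alone among them, over the start itself in both, against 6.92% of all windows. GC boxes were found in 9 of the 11 windows, with 6 in ULBP3, and in 43.1% of all windows. The CCAAT box was found in CD276, MICA, MICB and ULBP2, against 32.7% of all windows. None of these motifs was found in the windows of PVR and LGALS9, and a match here is a description of letters and not of binding.

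Expression is given as FPKM, a fragment count divided by transcript length and by the fragments mapped in that library, and summed over the listed transcripts of a gene. A fold change is the difference of mean log2(FPKM + 1), LBH589 minus DMSO, which understates the change of genes near or below 1 FPKM. A gene was tested where its mean over the 6 libraries was at least 0.5 FPKM, and called where the Benjamini-Hochberg adjusted p of limma, over all 11520 tested genes, was below 0.05. Of the 8 ligand genes tested, 5 were called higher in LBH589 (MICA, MICB, ULBP2, ULBP3 and CD47), 1 was called lower (PVR), and 2 were not called (NECTIN2 and CD276). Across all tested genes, 48.8% were called, 27.2% higher and 21.6% lower. The DMSO and LBH589 values did not overlap in 6 of the 8 ligand genes, against 59.5% of all tested genes. The median log2 fold change was 0.63 over the 8 and 0.08 over all genes tested. These counts describe the ligands only, since a transcript was listed where its mean reached 0.5 FPKM in at least 1 group, and CD274 and ULBP3 reached it in LBH589 alone and so had to be higher there.

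**Figure D1:**
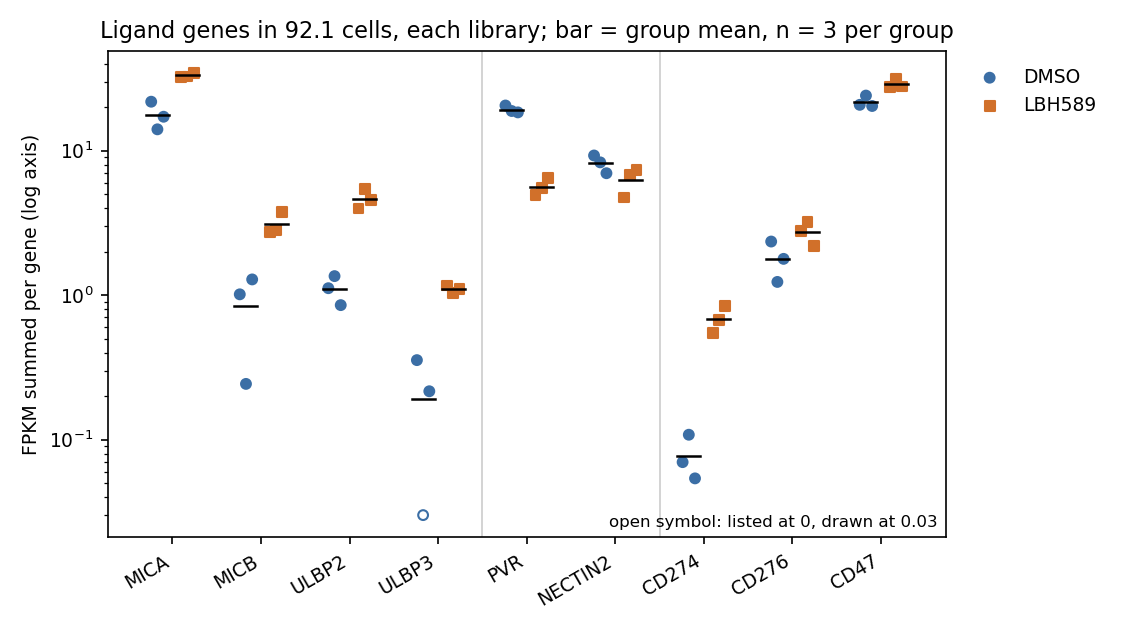
FPKM summed per gene (log axis) of the 9 listed ligand genes in each of the 3 DMSO libraries (circles) and 3 LBH589 libraries (squares), with bars at the group means; an open circle marks a value listed at 0. The 4 NKG2D ligands on the left lie higher in LBH589 and PVR lies lower, while the groups of NECTIN2 and CD276 overlap.

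The order of the ligands by level differed between the groups. In DMSO the 3 most abundant were CD47, PVR and MICA, with means of 21.7, 19.2 and 17.7 FPKM and overlapping ranges, followed by NECTIN2 at 8.17 FPKM, apart from both neighbours. CD276 at 1.79, ULBP2 at 1.11 and MICB at 0.846 FPKM came next, with ranges that overlapped from neighbour to neighbour, and ULBP3 and CD274 were lowest. In LBH589, MICA stood first at 33.2 FPKM and CD47 second at 28.9 FPKM, with ranges that did not overlap. NECTIN2, PVR and ULBP2, at 6.30, 5.64 and 4.66 FPKM, overlapped from neighbour to neighbour. MICB at 3.11 and CD276 at 2.72 FPKM overlapped with each other, and ULBP3 at 1.10 and CD274 at 0.689 FPKM were apart. These orders compare length-scaled levels and were not tested.

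All 4 NKG2D ligands were higher in LBH589. MICA, the most abundant of them, was at 21.8, 14.04 and 17.2 FPKM in controls 1 to 3 and at 32.4, 32.6 and 34.5 FPKM in treated libraries 1 to 3, an order of replicates kept throughout. Every treated library lay above every control. The means were 17.7 ± 3.91 and 33.2 ± 1.18 FPKM (SD, n = 3 each), with a log2 fold change of 0.89 (SE 0.16, 95% interval 0.50 to 1.29, limma adjusted p = 0.00529). Summed over the 4 genes, the libraries held 24.3, 15.6 and 19.5 FPKM of NKG2D ligands in DMSO and 40.3, 41.9 and 43.9 FPKM in LBH589. MICA made up most of that sum in each library, so the sum follows MICA. In bulk RNA, fewer cells expressing a gene and less RNA per cell cannot be told apart, and this holds for each comparison below.

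MICB, the close relative of MICA, was much scarcer, at 1.012, 0.243 and 1.28 FPKM in the controls and 2.73, 2.83 and 3.76 FPKM after LBH589. DMSO replicate 2 was the lowest library and the groups did not overlap. The log2 fold change was 1.19 (SE 0.26, 95% interval 0.56 to 1.82, limma adjusted p = 0.0105), and it was 1.98 with a pseudocount of 0.1 in place of 1. MICA and MICB are near-identical in parts of their sequence, so the split of fragments between them is uncertain.

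ULBP2, a ligand anchored to the membrane by a lipid, was at 1.12, 1.35 and 0.852 FPKM with DMSO and 3.98, 5.45 and 4.55 FPKM with LBH589. The lowest treated library held more than any control, and the mean was 4.21 times that of DMSO. Its log2 fold change of 1.42 (SE 0.16, 95% interval 1.03 to 1.82, limma adjusted p = 7.94e-04) exceeded in value those of the other ligand genes that were called higher, an order that holds on the log2(FPKM + 1) scale and not with a pseudocount of 0.1, where ULBP3 lay above it (2.30 against 1.99). ULBP3, its neighbour in the same gene cluster, was listed at 0.355, 0 and 0.216 FPKM in control libraries and 1.16, 1.04 and 1.11 FPKM in treated libraries. The 3 treated libraries agreed closely with one another and lay above each control. ULBP3 was listed through LBH589 alone and so had to be higher there. The log2 fold change was 0.83 (SE 0.15, limma adjusted p = 0.00435), and the added 1 exceeds every DMSO value of this gene. The ULBP genes have near-identical copies, among them RAET1G and RAET1L, so fragments may be split between them.

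The remaining NKG2D ligands were nearly absent from the listing. Of ULBP1, RAET1E, RAET1G and RAET1L, only RAET1G was listed. RAET1G was listed at 0 in each DMSO library and at 1.45, 0.119 and 0.876 FPKM in the LBH589 libraries, below the level tested. Its listing came through LBH589 alone, so it had to be higher there.

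The listed transcripts of MICA and MICB differ in their coding parts. MICA-209 codes for 332 codons, and MICA-210 codes for 235 and lacks 291 of its coding bases. MICA-209 was at 12.1, 7.36 and 17.2 FPKM in DMSO, against 32.3, 32.5 and 27.8 FPKM in LBH589, so that all treated libraries were above all controls. It was called higher (log2 fold change 1.34, limma adjusted p = 0.0364 over 26943 tested transcripts), but not without DMSO replicate 1 (adjusted p = 0.0879), nor without LBH589 replicate 1, 2 or 3 (0.113, 0.113 and 0.0911). MICA-210 varied within the groups, at 9.67, 6.68 and 0 FPKM in the controls and 0.0674, 0.123 and 6.74 FPKM after LBH589, and it was not called (adjusted p = 0.617). MICB-201, the longer form with 383 codons, made up all of MICB in DMSO and between 56.9 and 100% in LBH589, where MICB-204 was listed in 2 libraries. MICB-201 alone was not called (log2 fold change 0.97, adjusted p = 0.0809). MICB-204 was listed through LBH589 alone and so could only add to the LBH589 side of the MICB sum.

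Of the 21 listed transcripts of the ligand genes, 16 were tested, 5 were called higher and 2 lower, against 8.56% and 7.32% of all transcripts tested, of which 15.9% were called in all and 36.9% had groups that did not overlap. The reach of the listing shapes these counts, because 5 of the 21 were listed through LBH589 alone and another 5 through DMSO alone.

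**Figure D2:**
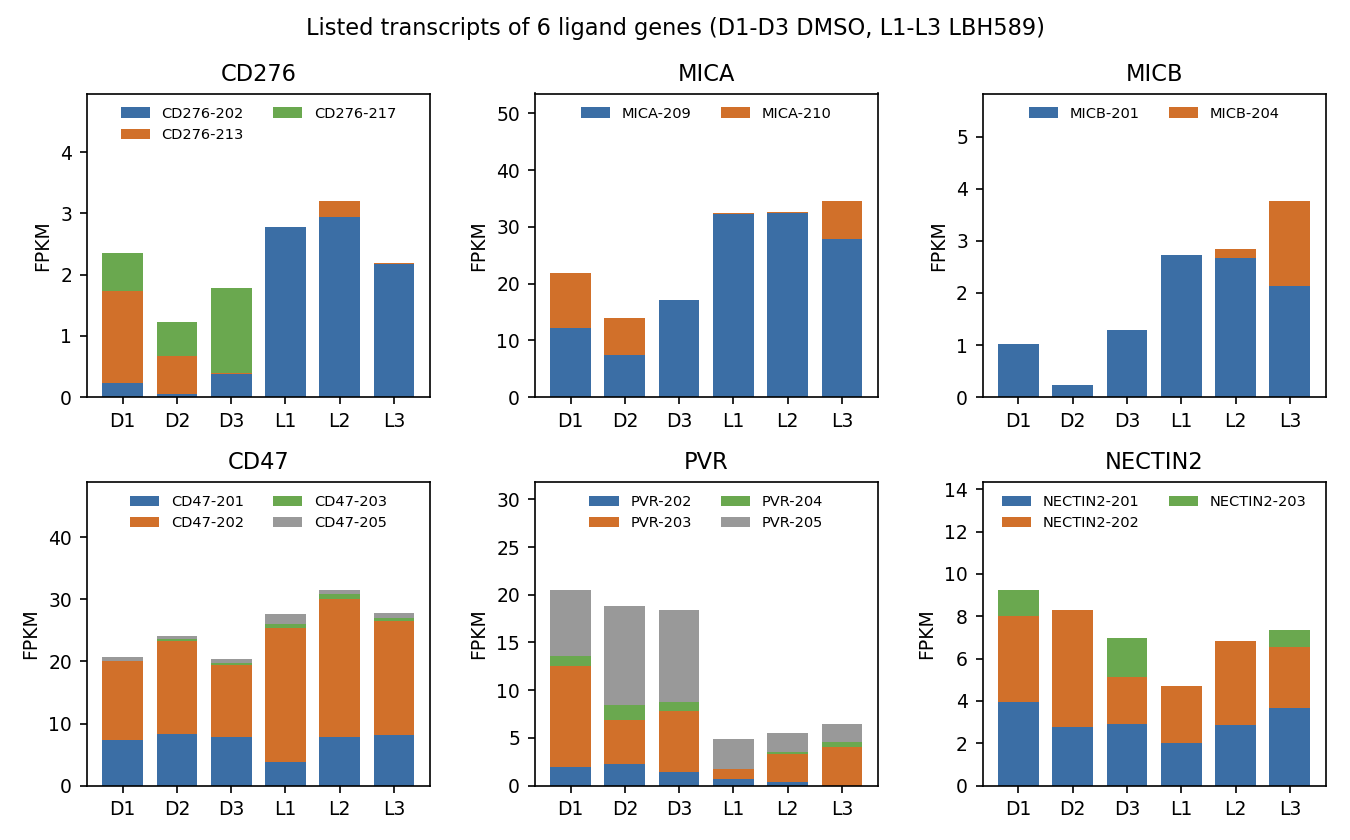
FPKM of each listed transcript, stacked, in the 3 DMSO (D1 to D3) and 3 LBH589 (L1 to L3) libraries, for the 6 ligand genes with more than 1 listed transcript. CD276-202 is a small part of CD276 in the DMSO libraries and nearly all of it in the LBH589 libraries, while the stacked sum of PVR is lower in LBH589.

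The ligands of DNAM-1 and TIGIT went the other way or did not move beyond their spread. PVR, an adhesion molecule and the receptor that poliovirus uses, was at 20.5, 18.8 and 18.4 FPKM with DMSO and 4.94, 5.48 and 6.50 FPKM with LBH589. No treated library came near the lowest control. PVR fell from 19.2 ± 1.13 to 5.64 ± 0.792 FPKM (SD, n = 3 each), a log2 fold change of -1.61 (SE 0.13, 95% interval -1.92 to -1.31, limma adjusted p = 1.79e-04). The summed FPKM of PVR and NECTIN2 went from between 25.4 and 29.8 in DMSO to between 9.67 and 13.8 in LBH589, so that the pair held more FPKM than the NKG2D ligands in each control and less in each treated library. Across the settings tried the PVR log2 fold change lay between -1.76 and -1.45. Annotated genes on the opposite strand overlap PVR and NECTIN2. On the same strand, CEACAM19 overlaps PVR and HCP5 overlaps MICA. The sources used here do not say whether strand was used in quantification, so the fragments of these overlapping genes could not be separated.

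NECTIN2, the nectin that engages the same receptors, was at 9.25, 8.29 and 6.98 FPKM in control libraries and 4.73, 6.82 and 7.34 FPKM in treated libraries. The groups overlapped, since LBH589 replicate 3 lay above DMSO replicate 3. The log2 fold change was -0.34 with a 95% interval of -0.80 to 0.11 (limma adjusted p = 0.181), so a fall of the size seen for PVR lies outside the interval while a smaller fall or no change lies inside it. Its 2 main transcripts, NECTIN2-201 and NECTIN2-202, had log2 fold changes of -0.14 and -0.19, and neither was called. They were about equally abundant, at group means of 3.21 and 3.92 FPKM in DMSO, against 2.86 and 3.18 FPKM in LBH589. The short NECTIN2-203, with 56 codons, was listed at 0 in 1 control and in 2 treated libraries, and reached 1.86 FPKM at most.

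PVR makes membrane forms and secreted forms. PVR-203, a secreted form with 372 codons, lacks 135 coding bases of the full-length PVR-205. They are shown here in capitals within the GENCODE 29 coding sequence because they separate the membrane-bound product from this secreted one. PVR-202 lacks 159 coding bases of PVR-205, and whether it is also secreted was not assessed here.
PVR-205: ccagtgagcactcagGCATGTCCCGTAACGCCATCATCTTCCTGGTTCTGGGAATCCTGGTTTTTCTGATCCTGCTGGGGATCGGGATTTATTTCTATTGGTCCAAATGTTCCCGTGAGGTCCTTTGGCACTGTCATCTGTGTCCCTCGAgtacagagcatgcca
PVR-205, with 417 codons, was at 6.97, 10.3 and 9.59 FPKM in the controls and 3.18, 1.98 and 1.95 FPKM after LBH589. The groups did not overlap, and the transcript fell (log2 fold change -1.57, limma adjusted p = 0.0115). PVR-203 was at 10.5, 4.57 and 6.34 FPKM with DMSO and 1.07, 2.88 and 4.05 FPKM with LBH589. Its groups were also apart, though it was not called (log2 fold change -1.18, adjusted p = 0.146). PVR-202, with 364 codons, was at 1.99, 2.29 and 1.46 FPKM in control libraries and 0.680, 0.397 and 0 FPKM in treated libraries. It fell (log2 fold change -1.12, adjusted p = 0.0411), but the call ended when any 1 of the 6 libraries was left out (adjusted p between 0.0581 and 0.115). For PVR-204, with 392 codons, it was -0.85, which was not called (adjusted p = 0.0664). Both PVR-202 and PVR-204 were listed through DMSO alone and so had to be lower in LBH589. PVR-205 held between 33.96 and 54.9% of PVR in DMSO and between 30.1 and 64.5% in LBH589, so its share overlapped between the groups.

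The checkpoint ligands differed among themselves. CD274, the ligand of PD-1, was scarce throughout, at 0.0698, 0.108 and 0.0539 FPKM in DMSO, against 0.549, 0.674 and 0.843 FPKM in LBH589. All treated libraries were above all controls, yet all 6 were below 1 FPKM, and the mean of the 6 was below the level tested. With no filter on level its log2 fold change was 0.65 (SE 0.11, limma adjusted p = 0.00348), and the listing of CD274 through LBH589 alone means that this test could have gone in no other direction. In 4 of the libraries the product of FPKM and transcript length gathered at a low value, called a step here. Other values lie below the step or between its multiples, so it is not a smallest unit. CD274 stood at 3.17, 5.48 and 1.999 such steps in DMSO replicates 1 to 3 and at 38.0 in LBH589 replicate 3, so the DMSO values lie within a few steps of 0.

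CD276 was at 2.35, 1.23 and 1.78 FPKM in the controls and 2.78, 3.20 and 2.19 FPKM after LBH589. The groups overlapped, because LBH589 replicate 3 lay below DMSO replicate 1. The sum was not called (log2 fold change 0.43, 95% interval -0.06 to 0.91, limma adjusted p = 0.125). Beneath the sum, however, the transcripts differed. CD276-202 has 534 codons and codes for the long form with 4 immunoglobulin domains, and CD276-217 has 316 codons, lacks 654 of its coding bases and codes for a short form. CD276-202 was at 0.235, 0.0511 and 0.386 FPKM with DMSO and 2.78, 2.93 and 2.17 FPKM with LBH589. It made up between 4.14 and 21.7% of the gene in DMSO and between 91.7 and 100% in LBH589, and it rose (log2 fold change 1.57, limma adjusted p = 0.00664). CD276-217 was at 0.621, 0.562 and 1.38 FPKM in DMSO and listed at 0 in all 3 LBH589 libraries. CD276-213, with 533 codons, was at 1.49, 0.620 and 0.0125 FPKM in control libraries and 0, 0.265 and 0.0223 FPKM in treated libraries. Both of these lay below the level tested. The short form thus had a value in each control and in no treated library, though an exact 0 can be a failed estimate. CD276-202 was listed through LBH589 alone and the other two through DMSO alone, so each had to differ in the direction it did, and all are low.

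How the CD276 transcripts were combined decided the call. CD276-217 is a model of 951 bases and CD276-202 one of 3469, so equal FPKM stands for fewer fragments of the former. With transcripts weighted by their length, an alternative chosen after the data were seen, CD276 was called higher (log2 fold change 1.03, limma adjusted p = 0.0128). With its most abundant transcript alone it was called higher as well (1.57, adjusted p = 0.00176). That transcript is CD276-202, listed through LBH589 alone, so this last alternative had to be higher.

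CD47 was abundant in both groups, at 20.7, 24.0 and 20.4 FPKM in DMSO, against 27.5, 31.5 and 27.8 FPKM in LBH589. All treated libraries lay above all controls by a narrow margin, and the means were 21.7 ± 2.02 and 28.9 ± 2.24 FPKM (SD, n = 3 each). It was called higher, with the smallest log2 fold change of the called ligands (0.40, SE 0.11, 95% interval 0.13 to 0.67, limma adjusted p = 0.0249). The call ended without DMSO replicate 3 (adjusted p = 0.0632) and without LBH589 replicate 1, 2 or 3 (0.0567, 0.0878 and 0.0564). With transcripts weighted by length the log2 fold change was 0.07 (adjusted p = 0.728).

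CD47 splice forms differ in the tail of the protein inside the cell. The ends of the 2 main coding sequences are shown without the stop codon, from GENCODE 29 transcripts, with the bases found in that form and not in the other in capitals.
CD47-202: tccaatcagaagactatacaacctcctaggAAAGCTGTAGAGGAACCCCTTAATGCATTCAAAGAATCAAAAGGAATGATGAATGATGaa
CD47-201: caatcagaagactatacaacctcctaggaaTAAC
CD47-202 codes for 323 codons and carries 58 coding bases that are absent from CD47-201, which codes for 305 codons. CD47-202 was at 12.6, 14.98 and 11.6 FPKM in the controls and 21.5, 22.3 and 18.4 FPKM after LBH589, with no overlap. CD47-201 was at 7.40, 8.28 and 7.85 FPKM with DMSO and 3.86, 7.77 and 8.14 FPKM with LBH589. LBH589 replicate 1 alone stood apart there, and the groups overlapped (log2 fold change -0.28, adjusted p = 0.567). CD47-202 thus made up between 56.8 and 62.3% of the gene in DMSO and between 66.4 and 78.1% in LBH589. It was called higher (log2 fold change 0.63, limma adjusted p = 0.0402), though not when DMSO replicate 1 (0.0870), DMSO replicate 3 (0.0920) or any treated library was left out (0.128, 0.129 and 0.0681 for replicates 1 to 3). The minor forms CD47-203 and CD47-205 stayed below 1 FPKM and below 2 FPKM in each library; the former was under the level tested and the latter was not called. The file gives an earlier version of CD47-201 than GENCODE 29, so the sequence and length of that form are those of the later version.

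**Figure D3:**
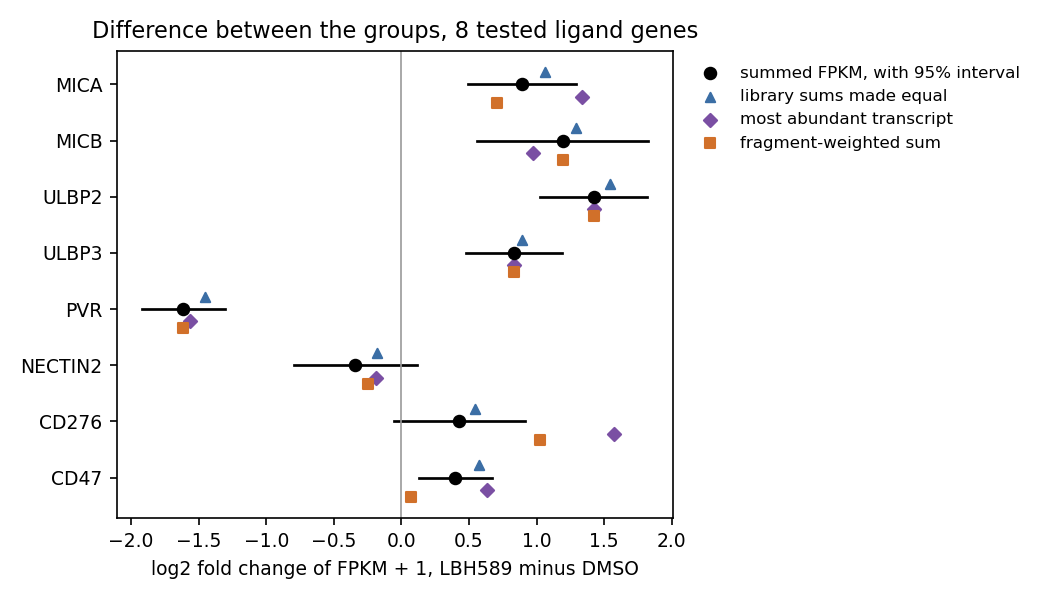
Difference between the groups as log2 fold change of FPKM + 1, LBH589 minus DMSO, for the 8 tested ligand genes: circles with lines give the sum of transcripts with its 95% interval, and triangles, diamonds and squares give 3 alternatives. The NKG2D ligands stay to the right of 0 and PVR to the left under each. CD276 and CD47 shift with the way transcripts are combined. ULBP3, and CD276 with its most abundant transcript alone, could only lie to the right, since these were listed through LBH589 alone.

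Other nectins and nectin-like genes stood higher where they were called. Of 4 tested, 3 were called higher and 0 lower, against 27.2% and 21.6% of all genes tested. The median log2 fold change was 1.38. NECTIN3, an adhesion partner of NECTIN2 and PVR, was at 5.66, 8.48 and 8.39 FPKM in control libraries and 33.5, 32.1 and 30.2 FPKM in treated libraries. Each treated library lay far above each control, and NECTIN3 rose (log2 fold change 1.97, SE 0.16, limma adjusted p = 2.36e-04). CADM2 was listed at 0, 0.00750 and 0 FPKM in DMSO, against 2.56, 2.31 and 2.39 FPKM in LBH589 (log2 fold change 1.77). CADM1, the ligand of the receptor CRTAM on NK and T cells, rose as well (log2 fold change 0.99). CADM4 was not called (adjusted p = 0.312), and NECTIN1 was below the level tested. CADM2, CADM1 and NECTIN1 had DMSO means below 0.5 FPKM, were listed through LBH589 and so had to be higher.

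The other ligands of NK cell receptors moved in both directions. Of 10 tested, 3 were called higher and 5 lower, against 27.2% and 21.6% of all genes tested. The median log2 fold change was -0.22. TNFSF9, the ligand of the costimulatory receptor 4-1BB, was at 3.89, 2.72 and 2.66 FPKM in the controls and 67.6, 64.8 and 83.7 FPKM after LBH589. This rise (log2 fold change 4.16, SE 0.17, limma adjusted p = 2.84e-05) was larger in value than that of any ligand gene tested above on the log2(FPKM + 1) scale, though with a pseudocount of 0.1 that of CADM2 was larger (4.62 against 4.51). CLEC2B, which engages the activating receptor NKp80, was at 27.9, 30.5 and 26.7 FPKM with DMSO and 4.59, 6.66 and 4.46 FPKM with LBH589, and it fell (log2 fold change -2.25). SLAMF7, a self-ligand of NK and plasma cells, fell as well (log2 fold change -1.73). PDGFD, a growth factor that binds NKp44, rose (log2 fold change 1.17), a call that ended when its most abundant transcript replaced the sum (adjusted p = 0.133). HLA-E, which presents leader peptides to the inhibitory receptor NKG2A, was called higher as well. ICAM1 and CD58, which NK cells use to adhere, and NCR3LG1 (B7-H6), the ligand of NKp30, were called lower. With library sums made equal, 3 were called higher and 4 lower.

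Of 7 tested genes that serve other checkpoints, 5 were called lower and 0 higher, against 21.6% and 27.2% of all genes tested. The median log2 fold change was -1.58, and another 16 of the 23 genes looked for were not listed. TNFRSF14 (HVEM), the ligand of the inhibitory receptor BTLA, was at 20.3, 18.7 and 10.2 FPKM in control libraries and 1.42, 0.876 and 0.647 FPKM in treated libraries. It fell (log2 fold change -3.10, SE 0.29, limma adjusted p = 3.94e-04). CEACAM1, a self-adhering molecule that also binds TIM-3, had means of 3.32 and 0.146 FPKM (log2 fold change -1.90). It was listed through DMSO alone and so had to be lower in LBH589. The 4 listed transcripts of TNFRSF14 summed to a mean of 0.981 FPKM in LBH589. Most of them were therefore also listed through DMSO alone, and the listing shaped that fall too. For the other lower calls the listing of single transcripts was not assessed. ENTPD1 (CD39) and NT5E (CD73), the enzymes that turn extracellular ATP into adenosine, fell together (log2 fold change -1.31 and -0.77). HMGB1, a chromatin protein that binds TIM-3 once released, fell as well (log2 fold change -1.58), and that call ended with its most abundant transcript alone (adjusted p = 0.148). LGALS3 and BTN2A2 were not called.

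Proteases that cut NKG2D ligands from the surface, and enzymes that process ligands, were called lower or not called. Of 13 tested, 0 were called higher and 5 lower, against 27.2% and 21.6% of all genes tested. The median log2 fold change was -0.45. MMP14, a membrane-bound matrix metalloprotease that can shed MICA, was at 59.2, 40.8 and 41.4 FPKM in DMSO, against 3.18, 3.79 and 2.86 FPKM in LBH589. The fall was larger in value than that of PVR (log2 fold change -3.48, SE 0.18, limma adjusted p = 5.14e-05). ADAM9 and ADAM10, sheddases of the ADAM family, had log2 fold changes of -1.84 and -0.75 and were both called lower. ADAM17, the sheddase of many surface proteins, was at 19.9 ± 1.85 and 16.02 ± 0.228 FPKM and was not called (adjusted p = 0.0569). PDIA6 (ERp5), the disulfide isomerase that opens MICA for cleavage, fell (log2 fold change -0.83). The sialyltransferase ST3GAL4 was also called lower, except with its most abundant transcript alone (adjusted p = 0.0695). CMTM6, which stabilizes PD-L1, and QPCTL, which modifies the site where CD47 meets SIRPα, were not called (adjusted p = 0.0553 and 0.291). With library sums made equal, 1 was called higher and 5 lower.

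Among 21 tested regulators known to act on these ligands, 6 were called higher and 7 lower, against 27.2% and 21.6% of all genes tested. The median log2 fold change was -0.26. The transcription factor STAT3 and the kinase JAK1 rose (log2 fold change 1.59 and 1.54). IFNGR2, a chain of the interferon-gamma receptor, and the transcription factor IRF2 fell (log2 fold change -1.63 and -0.61). The other chain of that receptor, IFNGR1, went the opposite way and was called higher (log2 fold change 0.94). NFKB1, a subunit of NF-κB, fell from 8.12 ± 0.442 to 2.27 ± 0.135 FPKM (log2 fold change -1.48). HSF1, the heat shock factor for which the pair of half-sites in MICA and MICB is named, was at 9.01 ± 3.06 and 7.18 ± 1.48 FPKM and was not called (adjusted p = 0.475). IRF1, called higher, was listed through LBH589 alone, and E2F1 and E2F2, called lower, through DMSO alone, so their directions were fixed by the listing. With library sums made equal, 7 were called higher and 6 lower.

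**Figure D4:**
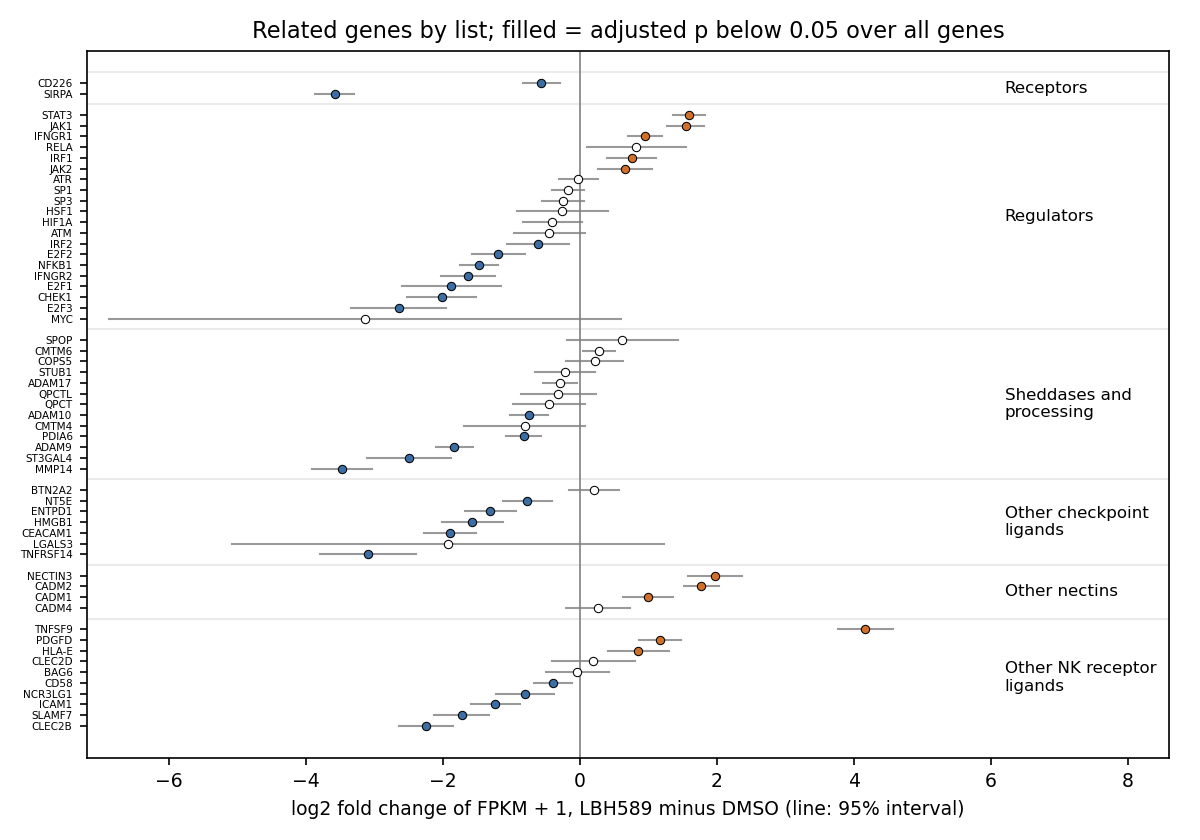
Log2 fold change of FPKM + 1, LBH589 minus DMSO, with its 95% interval, for the tested genes of 6 lists related to the ligands, with 1 regulator not shown; filled points were called at adjusted p below 0.05 over all genes. TNFSF9 lies farthest to the right at 4.16, SIRPA and MMP14 farthest to the left among called genes, and called regulators lie on both sides of 0.

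The receptors of these ligands belong mostly to immune cells, and 13 of the 15 looked for were not listed, KLRK1 (NKG2D), TIGIT and PDCD1 (PD-1) among them. The exceptions were both called lower, against 21.6% of all genes tested. SIRPA, the receptor of CD47, was at 40.2, 34.5 and 33.0 FPKM in the controls and 2.08, 2.14 and 1.97 FPKM after LBH589. It was thus an abundant transcript of the control cells and fell to a low level in every treated library (log2 fold change -3.59, SE 0.12, limma adjusted p = 1.69e-05). CD226 (DNAM-1), the receptor of PVR and NECTIN2, went from 1.09 ± 0.102 to 0.415 ± 0.0648 FPKM (log2 fold change -0.56, adjusted p = 0.00720). It was listed through DMSO alone and so had to be lower in LBH589.

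The genes whose profile over the 6 libraries lay closest to that of ULBP2, by root mean square distance of centred log2(FPKM + 1), were CCDC28A (0.0659), TMEM56 (0.0800) and ZNF559 (0.0864). ZNF559 was not called when its most abundant transcript replaced the sum (adjusted p = 0.390). The closest to PVR were HNRNPF (0.0568), OIP5 (0.0639) and MCM6 (0.0645). MCM6 is a subunit of the replicative helicase and HNRNPF a splicing regulator. HNRNPF was likewise not called with its most abundant transcript alone (adjusted p = 0.419). The 6 libraries form 2 groups, so these distances are a description and carry no test.

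The libraries differed in ways that touch these values. Summed FPKM was between 397174 and 422630 in DMSO and between 355148 and 367222 in LBH589 (exact two-sided permutation p = 0.1, the smallest that 3 against 3 samples allow). Mitochondrial genes held between 35.8 and 45.7% of the sum in DMSO and between 35.1 and 37.3% in LBH589 (exact two-sided permutation p = 0.3). The files hold FPKM and no counts, so absolute depth is unknown. With equal sums the median over all genes tested was 0.23 in place of 0.08 and higher calls made up 65.2% in place of 55.8%, and equal sums changed the call of none of the 8 tested ligand genes. Where sums without mitochondrial genes were made equal, the median was 0.11 and higher calls made up 58%. Of 12 melanocytic markers looked for, 11 were listed and 9 were called lower, DCT among them through DMSO alone, with sums between 2855 and 3043 FPKM in DMSO and between 782 and 836 FPKM in LBH589. Most of the 3 listed transcripts of SOX10, with a summed mean of 0.688 FPKM in LBH589, were also listed through DMSO alone. T and NK cell markers were not listed but for CD8A (1 of 15 listed, sums between 0.309 and 0.686 FPKM over all libraries), and markers of B cells and endothelium were not listed. Of 10 macrophage and dendritic cell markers, CD68, TYROBP and FCER1G were listed and none was called (sums between 11.6 and 17.6 FPKM in DMSO and between 12.4 and 16.3 FPKM in LBH589). These sums hide unlike genes. CD68 had means of 13.9 FPKM in DMSO and 10.1 FPKM in LBH589. TYROBP and FCER1G reached 3.79 and 5.80 FPKM in LBH589 replicate 1, against at most 0.0330 and 0.836 FPKM in DMSO. Both were listed at 0 in LBH589 replicate 3. Fibroblast markers were 2 of 6 listed, COL1A1 and LUM, both called higher from low levels (sums between 1.47 and 2.52 FPKM in DMSO and between 4.23 and 5.55 FPKM in LBH589). Of 5 epithelial markers, 3 were listed and EPCAM was called higher, though it was listed through LBH589 alone and so had to be higher (sums between 5.52 and 8.57 FPKM in DMSO and between 8.92 and 11.8 FPKM in LBH589). The part of these markers in the ligand values was not tested.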

How the data were processed

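Total RNA extracted with Trizol (1 µg) was made into TruSeq RNA libraries, per the labels' protocols. The submitters' processing notes name Bowtie 0.12.2 and hg19 but not their use, and the quantifier, annotation and strand setting are not given in the sources at hand. The deposited values are FPKM per transcript, per the file headers. Each of the 30624 listed transcripts had a mean of at least 0.500 FPKM in 1 group or the other.

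Transcripts were named by identifier through GENCODE release 29 (30504, 99.6%), used for names and coding lengths but not for coordinates, because its build is a later one. FPKM was summed per gene, which adds values divided by different transcript lengths. The 11520 of 12010 genes whose mean reached 0.5 FPKM entered limma 3.58.1 (R 4.3.3, with statmod 1.5.0) as log2(FPKM + 1), with treatment as the only term, trend and robust moderation, and Benjamini-Hochberg adjustment over them all. The 26943 transcripts at that level were tested alike. Library sums and mitochondrial shares were compared with exact permutation tests (scipy 1.17.1). An exact 0 can be a failed estimate, so such values are described as listed at 0. Simulated data had 200 of 11520 genes changed. The gene test recovered 14% of log2 changes of 0.5, 62% of 1 and 86% of 2, with 6 false calls. The changed genes were drawn from the better expressed ones, above the levels of MICB, ULBP2, ULBP3 and CD276. The share changed was also far below the share called in the real data, so these rates do not carry over to the ligands.

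The members and lists were chosen with earlier results of these data known. All 10 members are named. In each list up to 4 called genes with the smallest adjusted p are named, and any gene of a count of 5 or fewer. A few others were named after their values were seen. They were ADAM17, CMTM6, QPCTL, HSF1, IFNGR1, IFNGR2, IRF1, IRF2, E2F1, E2F2, the non-called checkpoint and nectin genes and the listed markers. The 3 profiles nearest to ULBP2 and PVR, the largest rise and fall among the members by log2 fold change of FPKM + 1, are named too. 1 gene that the rule takes is not reported here. Alternatives were another pseudocount, filters, scalings, limma without trend and robust moderation, a replicate block, leaving out each library, the most abundant transcript and, added after the data were seen, a length-weighted sum.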

Additional observations from a re-analysis of the deposited data

How the results depend on the processing

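MICA, MICB, ULBP2, ULBP3 and PVR kept their direction and call, and NECTIN2 stayed uncalled, under each alternative that gave a value, with log2 fold changes between 0.71 and 1.34, 0.93 and 1.98, 1.29 and 1.99, 0.57 and 2.30, -1.76 and -1.45, and -0.45 and -0.18. ULBP3 was listed through LBH589 alone, so its direction was fixed by the listing under each of these. For CD276 and CD47 the call depended on how transcripts were combined, and for CD47 also on single libraries, as given above. At a mean of at least 5 FPKM, 4 ligand genes were tested and 3 called, against 6 of 8, with 3590 in place of 5617 genes called and 2451 in place of 4279 transcripts, since fewer were tested. Leaving out 1 library gave between 5 and 6 ligand genes, between 4585 and 5677 genes and between 2491 and 3690 transcripts; without LBH589 replicate 1, 2 or 3 the transcripts numbered 2491, 2552 and 2564. Same-numbered samples did not deviate together (r = -0.104, 0.021 and -0.035 for replicates 1 to 3) and the labels tie the numbers to nothing, so they do not pair the samples. With the replicate block, 6 ligand genes, 4789 genes and 1182 transcripts were called. Calls of single transcripts were the least stable among these results: 33 of 227 values lost the call of the main test. The 227 include transcripts not called there, which had no call to lose. ULBP3-201 kept its call in 6 of 14 alternatives and PVR-202 in 5 of 14. CD47-202 kept it in 7 of 15 and MICA-209 in 10 of 15. CD276-202, ULBP2-201 and PVR-205 lost it only with the block (adjusted p = 0.0634, 0.0641 and 0.0839). Uncalled transcripts turned in direction for NECTIN2-201 without LBH589 replicate 1 (0.0231; range on leaving out 1 library -0.291 to 0.0231), NECTIN2-202 without DMSO replicate 2 (0.0468; -0.470 to 0.0468) and CD47-201 without LBH589 replicate 1 (0.0193; -0.437 to 0.0193); the cause was not tested. Absolute depth is unknown, and values below 1 FPKM, as for CD274 and ULBP3 in DMSO, are the least certain.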
